A study of Mus musculus with 6 samples.

Results

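Genes for enzymes and reader proteins that modify histones or DNA were followed through the loss of Dot1l, a histone H3 methyltransferase, in mouse myeloid progenitors transformed by the leukaemia gene MN1. They were chosen by gene symbol alone: the Setd, Jmjd, Suv, Ezh, Prdm, Prmt, Hdac, Sirt, Dnmt, Phf, Cbx, Tet and Mll families, with Wbp7, Suz12, Eed, Nsd1, Men1 and Psip1. Of the 31626 genes listed, 117 matched, under 113 symbols. Hdac4, Jmjd1c, Setd1b and Tet1 each had 2 entries with separate gene identifiers. Jmjd2a and Phf10 carried a placeholder instead of a value in some libraries and were dropped, which left 115 entries. Of these, 101 averaged at least 1 FPKM (fragments per kilobase, scaled for sequencing depth) over the 6 libraries and entered the test.

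Common myeloid progenitors of C57Bl/6 mice carrying Dot1l flox/flox alleles had been transduced with a retrovirus that expresses MN1 and GFP (MSCV-MN1-IRES-GFP). The cells were then transduced with Cre, which deletes the floxed Dot1l (3 libraries, called Dot1l-deleted here), or with a control (3 libraries). All were grown in M3234 methylcellulose with FBS, IL3, IL6 and SCF, and sorted on day 7 for stranded mRNA sequencing. Both groups therefore share the floxed alleles, the MN1 vector and the cytokines, and a Cre group with intact Dot1l was not analysed here, so Cre and the loss of Dot1l cannot be told apart. Whether the 3 libraries of a group are biological or technical repeats is not in the labels, and the p-values refer to their spread alone.

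Gene regulation by chromatin works through writers, erasers and readers. Histone methyltransferases of the SET, Prmt and Dot1l types write marks, demethylases and deacetylases remove them, and proteins with chromodomains or PHD fingers bind them. In DNA, Dnmt1 copies methylation to the new strand at replication, Dnmt3a and Dnmt3b place it on unmethylated sites, Dnmt3l has no catalytic activity of its own and stimulates both of them, and the Tet enzymes oxidise it. Mll1 and Menin, the product of Men1, are required in several leukaemias together with Dot1l, and Ezh2, Dnmt3a and Tet2 are recurrently mutated in human myeloid disease.

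The members with the largest log2 differences in either direction were Dnmt3l, which rose, and Dnmt3b, which fell. The 250 bases before their annotated starts are shown to set the 2 promoters side by side, because they differ in CpG content, the dinucleotide that these enzymes methylate. The sequences are from RefSeq on GRCm38.p6, are written on the plus strand, along which both genes are transcribed, and have CG (C followed by G, searched on the printed strand, which is the same on the other) in capitals. Dnmt3l has 3 annotated starts, and gene-level FPKM does not tell which of them was used.

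Dnmt3l, first start, chr10:78042037-78042286: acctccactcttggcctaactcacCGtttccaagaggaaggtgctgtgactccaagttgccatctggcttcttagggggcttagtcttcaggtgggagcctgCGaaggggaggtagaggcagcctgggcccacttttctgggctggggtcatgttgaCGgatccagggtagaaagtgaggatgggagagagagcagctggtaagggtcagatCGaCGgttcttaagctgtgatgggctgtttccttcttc
Dnmt3l, the third start, chr10:78055085-78055334: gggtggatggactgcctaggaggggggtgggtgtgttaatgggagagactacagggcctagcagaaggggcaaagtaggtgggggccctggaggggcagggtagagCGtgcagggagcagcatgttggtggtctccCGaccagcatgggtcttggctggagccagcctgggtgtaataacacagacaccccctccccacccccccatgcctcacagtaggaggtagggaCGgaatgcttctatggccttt
Dnmt3b, chr2:153649199-153649448: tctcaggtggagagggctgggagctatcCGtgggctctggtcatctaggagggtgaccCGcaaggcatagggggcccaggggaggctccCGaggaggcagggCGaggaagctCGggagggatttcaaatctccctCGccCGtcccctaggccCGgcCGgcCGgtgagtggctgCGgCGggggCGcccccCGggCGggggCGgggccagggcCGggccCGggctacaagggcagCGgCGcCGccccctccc

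The first Dnmt3l window holds 5 CG, the one at the second start, not printed, holds 4 and the one at the third start holds 3. The median is 6 over the windows at the first listed start of 27025 genes. The Dnmt3b window holds 21, and 85.4% of genes have no more than that. Among other windows counted, that of Jhdm1d (now Kdm7a), which rose, holds 56, and that of Tet1, which fell, holds 15. Those of Dnmt3a, whose difference did not pass the test, hold 38, 40 and 15. All of these are counts of letters, and methylation was not measured. Whether CpG content goes with the direction of change was not tested.

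Dot1l had 8.24, 8.17 and 5.80 FPKM in the Dot1l-deleted libraries, against 20.2, 22.6 and 19.6 FPKM in the control libraries, so each library went with its label. One library bears on every value below. In Dot1l-deleted replicate 3 the 10 most abundant genes held 39.0% of the summed FPKM, against 6.59 to 10.8% in the other libraries. It was the lowest of the 6 libraries for 88 of the 101 members (87.1%, against 75.5% of all genes tested). The comparison was therefore repeated after median-of-ratios scaling, which takes out a factor common to the genes of a library, and this moved the median log2 difference of all genes from -0.16 to -0.02. The median coefficient of variation of the members in Dot1l-deleted libraries was 16.9% as deposited and 5.51% scaled, against 5.48% and 5.19% in control libraries. In bulk RNA of this kind, fewer cells of a type and less RNA per cell cannot be told apart.

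Dnmt3l had 6.51, 7.05 and 5.11 FPKM in the Dot1l-deleted libraries, against 0.945, 0.825 and 0.643 FPKM in the control libraries. The groups were far apart, at 6.22 ± 1.003 and 0.804 ± 0.152 FPKM (SD, n = 3 each), a 7.74-fold higher mean in Dot1l-deleted cells. On the log2(FPKM + 1) scale, which understates changes of low genes, the difference was 1.995 (SE 0.17, adjusted p = 1.658e-05, limma), and 2.10 with scaling. It ranked 168 from the top among the 11924 genes tested. Its control mean lay under 1 FPKM, so it entered the test only through the group where it is high. The neighbouring Aire, which overlaps Dnmt3l on the opposite strand, was listed at 0 in all 6 libraries.

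Dnmt3b, the de novo methyltransferase, had 12.8, 12.2 and 8.87 FPKM in the Dot1l-deleted libraries, against 25.5, 26.6 and 26.9 FPKM in the control libraries. Every Dot1l-deleted library lay below every control library, and the mean was 2.34-fold lower, at 11.3 ± 2.09 against 26.3 ± 0.733 FPKM (SD, n = 3 each; log2 difference -1.17, SE 0.16, adjusted p = 0.000418, and -1.02 with scaling). An antisense RNA is annotated over 837 bases of Dnmt3b. Dnmt3a, its paralogue, had 11.8, 11.0 and 8.52 FPKM in Dot1l-deleted cells and 11.7, 12.8 and 11.3 FPKM in control cells. The groups overlapped and the difference did not pass (-0.18, adjusted p = 0.426). The Dnmt3b level was 1.077, 1.101 and 1.041 times that of Dnmt3a within the Dot1l-deleted libraries, against 2.18, 2.08 and 2.38 times in the control libraries, a ratio that no scaling of a library changes. An exact two-sided permutation test of this ratio gave p = 0.1, and no smaller p is possible with 3 libraries a group.

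Dnmt1, the maintenance methyltransferase, was the most abundant of the family, with 101, 88.5 and 69.7 FPKM in Dot1l-deleted cells and 105, 114 and 106 FPKM in control cells (-0.34, adjusted p = 0.216). Its groups did not overlap, and with scaling the difference of -0.18 had an adjusted p of 0.0490. Tet1 (ENSMUSG00000047146), a methylcytosine oxidase, had 2.34, 2.11 and 1.36 FPKM in Dot1l-deleted cells, against 2.86, 4.10 and 3.82 FPKM in control cells, and fell (-0.65, SE 0.19, adjusted p = 0.0372). The second Tet1 entry, with no match in the annotation used here, was also lower in each Dot1l-deleted library, at 0.899 to 1.11 FPKM, against 1.56 to 2.25 FPKM in control libraries, and missed the threshold (-0.58, adjusted p = 0.0520). The call of the first entry was lost without Dot1l-deleted replicate 2, control replicate 2 or control replicate 3, with adjusted p up to 0.152. Tet3 had 11.2, 8.65 and 8.38 FPKM in Dot1l-deleted cells and 7.86, 10.2 and 8.37 FPKM in control cells, with overlapping groups (0.08, adjusted p = 0.737). Tet2, listed under the clone name AC120398.10 and identified by its gene identifier, had 6.17, 5.23 and 4.30 FPKM in Dot1l-deleted cells and 4.22, 4.33 and 4.62 FPKM in control cells (0.20, adjusted p = 0.388). With scaling the groups of Tet2 were apart and it was called higher (0.33, adjusted p = 0.0125), as it was without Dot1l-deleted replicate 3 (0.31, adjusted p = 0.0450).

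**Figure D1:**
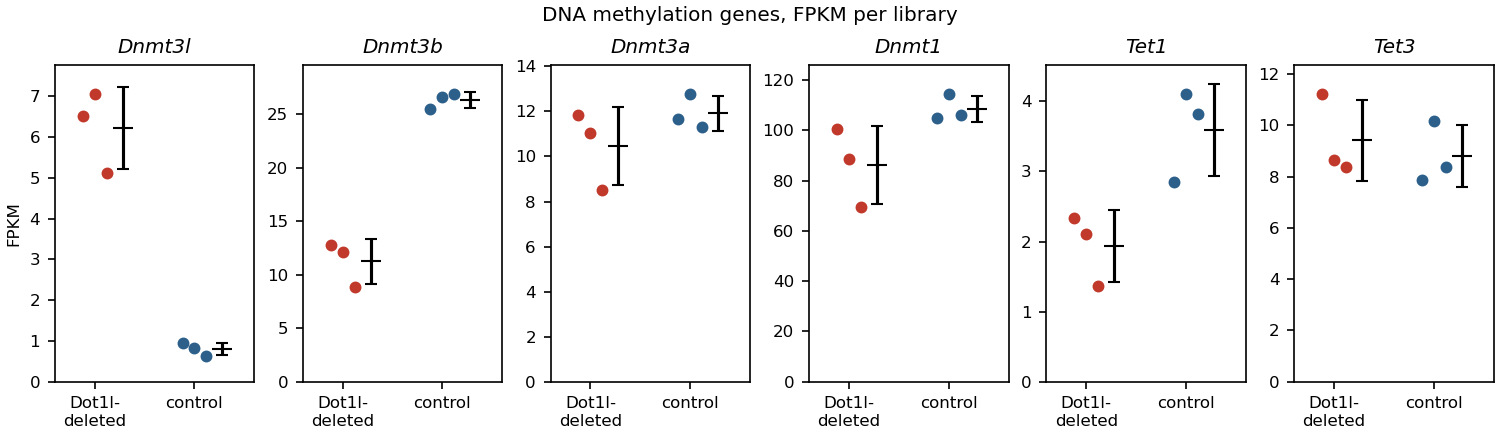
FPKM (vertical axis, linear from 0) of 6 genes of DNA methylation and demethylation, with Dot1l-deleted libraries left and control libraries right in each panel. Dots are libraries and dashes with bars are the mean ± SD (n = 3). Dnmt3l lies higher and Dnmt3b and Tet1 lie lower in every Dot1l-deleted library, while Dnmt3a and Tet3 overlap.

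Of the 101 members tested, 20 were called at an adjusted p below 0.05, Dnmt3l higher and 19 lower in Dot1l-deleted cells. That is 19.8% of the members, where 19.7% of all genes were called. The calls were divided 1 to 19, or 0.990% of members higher and 18.8% lower, where 7.43% of all genes were called higher and 12.2% lower. With scaling 46 members were called, 8 higher and 38 lower, beside 21.2% of all genes higher and 24.7% lower. The members' median log2 difference was -0.28 as deposited and -0.14 scaled, against -0.16 and -0.02 over all genes. Without a threshold, the libraries of the groups did not overlap for 50 members lower and 4 members higher in Dot1l-deleted cells, where 34.1% of all genes were lower and 10.7% higher in this sense. With scaling these were 46 lower and 12 higher, beside 30.9% and 26.2% of all genes. The shifts were small: 2 members (1.98%) had a log2 difference of at least 1 in size, where 9.64% of all genes did. The member share of the summed FPKM was 0.444, 0.430 and 0.291% in Dot1l-deleted libraries and 0.513, 0.539 and 0.522% in control libraries.

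Of the 20, 19 were also called with scaling, in the same direction, and Cbx3 was not. Many calls as deposited were lost when a single library was left out, most often a control library. Of the 20, 5 held without control replicate 1, 3 without control replicate 2, 7 without control replicate 3, 17 without Dot1l-deleted replicate 1, 13 without Dot1l-deleted replicate 2 and 19 without Dot1l-deleted replicate 3. Dnmt3l, Dnmt3b and Phf21a held in all 6 of these fits, and for the other 17 the highest adjusted p ranged from 0.0564 to 0.188. With scaling, 17 of the 20 held whichever library was left out, with adjusted p up to 0.0185, and the exceptions were Cbx3, Mll3 and Tet1.

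**Figure D2:**
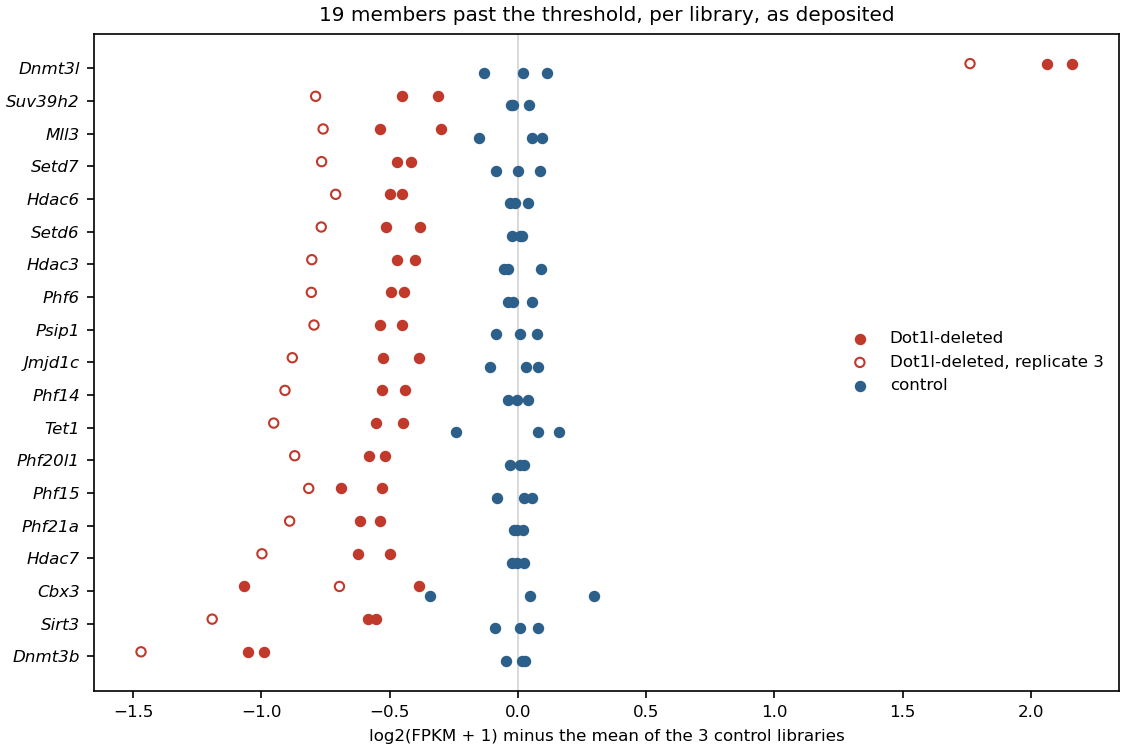
log2(FPKM + 1) minus the control mean (horizontal axis) for 19 of the called members, 1 line each. Red points are Dot1l-deleted libraries, with replicate 3 open, and blue points are control libraries. Dnmt3l stands alone on the right, near 2, and the other 18 lie left of 0 in every Dot1l-deleted library, with replicate 3 the lowest for all but Cbx3.

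The Mll family writes methylation of histone H3 at active promoters and enhancers. Of 10 entries for these genes and their partners, 2 fell, Psip1 and Mll3, and none rose. The class counts here and below stand beside 12.2% of all genes called lower and 7.43% higher, or 24.7% and 21.2% with scaling. Psip1 encodes a chromatin reader that ties Menin and Mll1 to their target genes. It had 50.2, 47.2 and 39.3 FPKM in Dot1l-deleted cells, against 64.9, 72.7 and 69.4 FPKM in control cells (-0.59, SE 0.16, adjusted p = 0.0250, and -0.44 with scaling). Snapc3, which shares 11997 bases with Psip1 on the opposite strand, had 15.1, 14.4 and 10.6 FPKM in Dot1l-deleted and 16.1, 16.1 and 15.9 FPKM in control cells. Mll3, an enhancer methyltransferase now named Kmt2c, had 4.63, 3.78 and 3.10 FPKM in Dot1l-deleted cells and 5.24, 6.21 and 6.41 FPKM in control cells (-0.53, SE 0.16, adjusted p = 0.0413). For both genes the groups did not overlap.

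Mll1 (now Kmt2a), which the series also deleted in libraries not analysed here, had 8.09, 6.99 and 4.97 FPKM in Dot1l-deleted cells and 7.83, 10.2 and 9.77 FPKM in control cells. Its groups overlapped (-0.43, adjusted p = 0.121). Men1 had 44.2, 43.8 and 31.5 FPKM in Dot1l-deleted cells and 44.9, 45.1 and 43.0 FPKM in control cells, a scaled difference of -0.01 (adjusted p = 0.814). Mll5 (-0.35, adjusted p = 0.161), Setd1a (-0.34, 0.159), Mll2 (-0.07, 0.809), Wbp7 (-0.06, 0.814) and the 2 Setd1b entries (0.04, 0.900, and 0.01, 0.977) did not pass, with or without scaling.

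Among 14 other SET-domain methyltransferases, 3 fell and none rose as deposited. With scaling 5 were called lower and 2 higher, Setd4 (0.28, adjusted p = 0.0347) and Suv420h2 (0.15, adjusted p = 0.00822). Setd7, a methyltransferase of histone H3 and other proteins, had 29.6, 28.5 and 23.0 FPKM in Dot1l-deleted cells, against 37.5, 42.3 and 39.9 FPKM in control cells (-0.55, adjusted p = 0.0303). Setd6, known to methylate the NF-kB subunit RelA, had 10.5, 9.46 and 7.78 FPKM in Dot1l-deleted cells, against 14.02, 13.7 and 14.1 FPKM in control cells (-0.55, adjusted p = 0.0189). Suv39h2, which writes the heterochromatin mark, had 10.6, 11.8 and 8.19 FPKM in Dot1l-deleted cells, against 14.6, 15.3 and 14.7 FPKM in control cells (-0.52, adjusted p = 0.0374). All 3 stayed apart from control libraries. The opposite-strand neighbour Dclre1c, which shares 8316 bases with Suv39h2, had 7.13, 7.61 and 5.31 FPKM in Dot1l-deleted and 7.43, 7.33 and 8.01 FPKM in control cells. Suv39h1, the paralogue of Suv39h2, differed by -0.06 (adjusted p = 0.829), and the ratio of Suv39h2 to Suv39h1 was 0.195, 0.223 and 0.212 in Dot1l-deleted libraries and 0.295, 0.298 and 0.294 in control libraries. Setd2, the transcription-coupled H3 methyltransferase, differed by -0.32 (adjusted p = 0.203) and with scaling by -0.17 (adjusted p = 0.0293), and Nsd1 by -0.02 (adjusted p = 0.947).

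No subunit of Polycomb repressive complex PRC2 passed as deposited with limma, 1 of the 4 had an unadjusted p below 0.05, and 2 of the 4 were called with scaling. Ezh2, the catalytic subunit of dividing cells, had 53.5, 50.6 and 38.0 FPKM in Dot1l-deleted cells, against 66.9, 67.2 and 68.5 FPKM in control cells (-0.52, adjusted p = 0.0588, and -0.36, adjusted p = 0.000471 with scaling). Ezh1, the form that prevails in resting cells, had 6.63, 6.68 and 5.43 FPKM in Dot1l-deleted cells and 6.51, 6.63 and 6.21 FPKM in control cells (-0.04, adjusted p = 0.844). The ratio of Ezh2 to Ezh1 was 8.08, 7.57 and 7.00 in Dot1l-deleted libraries, all below the 10.3, 10.1 and 11.0 of the control libraries. Eed differed by -0.32 (adjusted p = 0.222, and 0.0205 with scaling) and Suz12 by -0.26 (adjusted p = 0.322, and 0.0932 with scaling). The summed level of 14 proliferation markers, as deposited, was 1034 to 1488 FPKM in Dot1l-deleted libraries and 1539 to 1620 FPKM in control libraries. Of these markers 1 was called lower as deposited, where 12.2% of all genes were. With scaling 8 were called lower and 1 higher, beside 24.7% and 21.2% of all genes. The part of proliferation in the Ezh2 values was not tested.

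Of the 7 chromobox readers, Cbx3, a heterochromatin protein, fell as deposited, with 3.88, 6.84 and 5.33 FPKM in Dot1l-deleted cells, against 7.07, 9.58 and 11.6 FPKM in control cells (-0.72, adjusted p = 0.0366). It was the only call of the 20 lost with scaling, where the difference was -0.57 with a larger adjusted p of 0.121, and it was also lost without Dot1l-deleted replicate 1 or 3 or control replicate 2 or 3, with adjusted p up to 0.164. Cbx3 has processed copies in the genome that can share its reads, so its level is uncertain. With scaling Cbx1 (-0.29, adjusted p = 0.00613) and Cbx2 (-0.38, adjusted p = 0.0122) were called lower. Cbx8, a Polycomb reader, had 3.53, 3.93 and 4.94 FPKM in Dot1l-deleted cells and 3.47, 3.02 and 3.31 FPKM in control cells, apart but not past the test (0.26, adjusted p = 0.282).

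**Figure D3:**
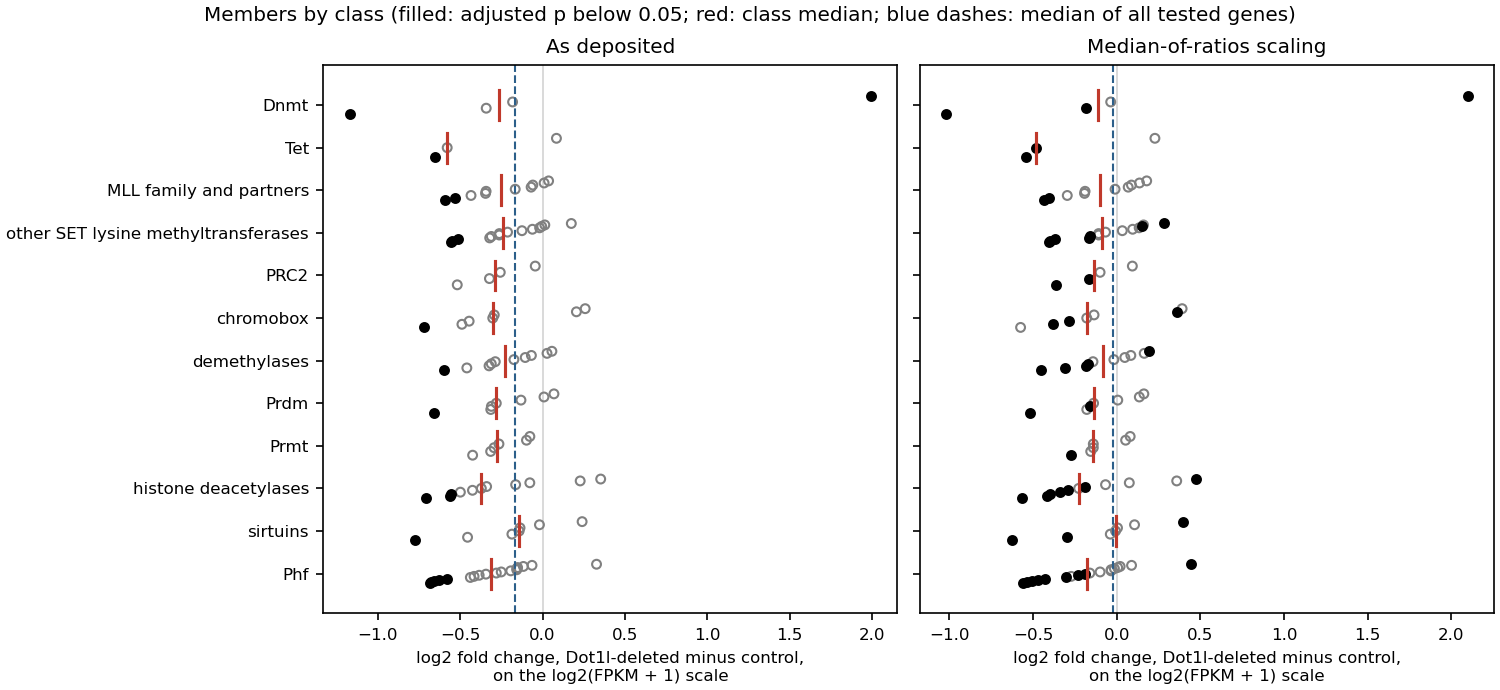
log2 difference, Dot1l-deleted minus control (horizontal axis), of every tested member by class, as deposited and after median-of-ratios scaling. Filled points have an adjusted p below 0.05, red lines are class medians and the blue dashed line is the median of all genes. Class medians lie between -0.58 (Tet) and -0.14 (sirtuins) as deposited, and between -0.48 (Tet) and -0.007 (sirtuins) scaled. The Tet class holds 3 entries, 2 of them for Tet1, and lacks Tet2, which is listed under another symbol. The demethylase class holds the Jmjd genes, grouped by symbol and not by activity.

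The Jmjd genes were grouped by symbol and not by activity, and not all need be histone demethylases. Of 10 tested, 1 fell as deposited, and with scaling 4 were called lower and 1 higher, Jmjd4 (0.19, adjusted p = 0.0301). The one called as deposited was Jmjd1c, a jumonji gene related to the H3 demethylase Jmjd1a, with 11.1, 10.01 and 7.62 FPKM in Dot1l-deleted cells, against 13.7, 15.7 and 15.2 FPKM in control cells (-0.60, adjusted p = 0.0222). Jmjd3, a demethylase of the Polycomb mark now named Kdm6b, differed by -0.32 (adjusted p = 0.136, and 0.0258 with scaling). The annotation behind the files predates the Kdm names, so none of its symbols starts with Kdm1 to Kdm6. Under older symbols, 11 further Kdm and Tet genes were found by gene identifier, and of the 10 tested 1 rose, while with scaling 3 were called higher and 4 lower. The one called as deposited was Jhdm1d (now Kdm7a), a demethylase of repressive marks, with 2.70, 1.998 and 1.88 FPKM in Dot1l-deleted cells, against 0.850, 0.915 and 0.786 FPKM in control cells, a 2.58-fold higher mean (0.78, adjusted p = 0.0135). Its control mean too lay under 1 FPKM, and it was tested only through the Dot1l-deleted group. Aof2 (Kdm1a, also known as Lsd1), an H3 demethylase that limits myeloid differentiation, had 47.3, 48.7 and 34.7 FPKM in Dot1l-deleted cells, against 65.0, 62.7 and 62.0 FPKM in control cells. Its groups were apart, its adjusted p was 0.0501 as deposited (-0.54), and with scaling it was 0.000188 (-0.39). Utx (Kdm6a), Jarid1b (Kdm5b) and Fbxl10 (Kdm2b) differed by -0.32, -0.32 and -0.27 and did not pass, with adjusted p of 0.178, 0.182 and 0.287. With scaling Utx (-0.17, adjusted p = 0.00857) and Jarid1b (-0.17, adjusted p = 0.00854) were called lower.

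Of 14 Prdm entries 7 lay below the filter and 7 were tested. Prdm16, a regulator of haematopoietic stem cells, stayed at 0.130 to 0.273 FPKM in Dot1l-deleted and 0.160 to 0.267 FPKM in control cells, and was too low to test. Prdm1, a regulator of terminal differentiation, was also below the filter, with 0.237, 0.227 and 0.163 FPKM in Dot1l-deleted cells, against 0.0323, 0.0681 and 0.0164 FPKM in control cells. It was higher in every Dot1l-deleted library, as were 14.3% of all genes below the filter and above 0 in some library. None of the 6 tested arginine methyltransferases of the Prmt family passed with limma, although 1 had an unadjusted p below 0.05 and 1, Prmt3, was called lower with scaling (-0.27, adjusted p = 0.00942). Prmt1, the main enzyme of the family and the most abundant member of all, had 346, 335 and 222 FPKM in Dot1l-deleted cells and 386, 364 and 353 FPKM in control cells (-0.31, adjusted p = 0.314).

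Of the 11 Hdac deacetylase entries tested, 3 fell and none rose, and with scaling 6 were called lower and 1 higher. Lower as deposited were 27.3%, beside 12.2% of all genes. With scaling 54.55% were lower and 9.09% higher, beside 24.7% and 21.2% of all genes. Hdac7, a class IIa deacetylase, had 7.39, 8.17 and 5.48 FPKM in Dot1l-deleted cells, against 12.2, 11.9 and 11.8 FPKM in control cells (-0.71, SE 0.15, adjusted p = 0.00845). Hdac3, the enzyme of the NCoR corepressor complex, had 65.2, 68.6 and 51.7 FPKM in Dot1l-deleted cells, against 96.9, 88.4 and 87.6 FPKM in control cells (-0.56, adjusted p = 0.0404). Hdac6, a cytoplasmic tubulin deacetylase, had 5.07, 4.87 and 4.07 FPKM in Dot1l-deleted cells, against 7.11, 7.53 and 7.22 FPKM in control cells (-0.55, adjusted p = 0.0153). All 3 were lower in every Dot1l-deleted library. Hdac1 differed by -0.08 (adjusted p = 0.792), and its partner Hdac2 by -0.50 (adjusted p = 0.0739, and 0.000694 with scaling). The first Hdac4 entry had 4.27, 3.56 and 3.10 FPKM in Dot1l-deleted cells and 2.57, 2.66 and 2.62 FPKM in control cells, apart in the other direction (0.35, adjusted p = 0.146, and 0.47, adjusted p = 0.00427 with scaling). The second Hdac4 entry had 7.37, 9.40 and 4.17 FPKM in Dot1l-deleted cells and 4.63, 5.43 and 6.73 FPKM in control cells. Its groups overlapped and it did not pass with limma (0.23, adjusted p = 0.538, and 0.36, adjusted p = 0.179 with scaling).

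Sirtuins are NAD-dependent deacylases, and 1 of 7 fell as deposited, while with scaling 2 were called lower and 1 higher. These shares were near those of all genes: 14.3% lower beside 12.2% as deposited, and 28.6% beside 24.7% with scaling. Sirt3, the mitochondrial deacetylase, had 17.8, 17.4 and 11.1 FPKM in Dot1l-deleted cells, against 28.1, 26.7 and 24.9 FPKM in control cells (-0.78, SE 0.19, adjusted p = 0.0137). Sirt7, a nucleolar sirtuin, had 34.9, 36.2 and 27.61 FPKM in Dot1l-deleted cells and 27.56, 27.1 and 27.96 FPKM in control cells. Its groups overlapped through replicate 3 alone (0.24, adjusted p = 0.311), and with scaling it was called higher (0.39, adjusted p = 0.000758). The ratio of Sirt7 to Sirt3 was 1.97, 2.09 and 2.50 in Dot1l-deleted libraries and 0.981, 1.02 and 1.12 in control libraries. Both overlap neighbours, Sirt3 with Psmd13 and Ric8a on the opposite strand and Sirt7 with Mafg on its own strand, where reads could be split. Mafg had 35.5, 31.5 and 30.4 FPKM in Dot1l-deleted and 26.7, 29.5 and 26.7 FPKM in control cells. Sirt1, the nuclear sirtuin, differed by -0.14 (adjusted p = 0.572).

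The Phf genes, named for the PHD finger that reads histone H3 tails, held 5 of the 20 calls, all lower, among 18 tested, and with scaling 8 were called lower and 1 higher. Lower as deposited were 27.8%, beside 12.2% of all genes. With scaling 44.4% were lower and 5.56% higher, beside 24.7% and 21.2% of all genes. Phf21a, a subunit of the Lsd1 corepressor complex, had 10.7, 10.04 and 8.14 FPKM in Dot1l-deleted cells, against 16.2, 15.8 and 15.9 FPKM in control cells (-0.68, SE 0.14, adjusted p = 0.00606). Phf15, a partner of a histone acetyltransferase now named Jade2, had 2.54, 2.16 and 1.90 FPKM in Dot1l-deleted cells, against 4.19, 4.30 and 3.82 FPKM in control cells (-0.68, adjusted p = 0.0102). Phf20l1, a reader of methylated lysine, had 17.8, 18.7 and 14.4 FPKM in Dot1l-deleted cells, against 26.5, 27.3 and 27.7 FPKM in control cells (-0.66, adjusted p = 0.00953). In each of the 3 the Dot1l-deleted libraries lay below all control libraries. Phf14 (17.0 to 23.9 FPKM in Dot1l-deleted against 31.9 to 33.8 FPKM in control cells; -0.63, adjusted p = 0.0197) and Phf6, mutated in human leukaemias (13.9 to 18.1 FPKM in Dot1l-deleted against 24.4 to 26.1 FPKM in control cells; -0.58, adjusted p = 0.0184), did likewise. Phf19, a PRC2 accessory protein, had 4.25, 3.96 and 3.04 FPKM in Dot1l-deleted cells and 2.98, 2.76 and 2.56 FPKM in control cells, apart in the other direction (0.33, adjusted p = 0.187, and 0.45, adjusted p = 0.00243 with scaling).

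**Figure D4:**
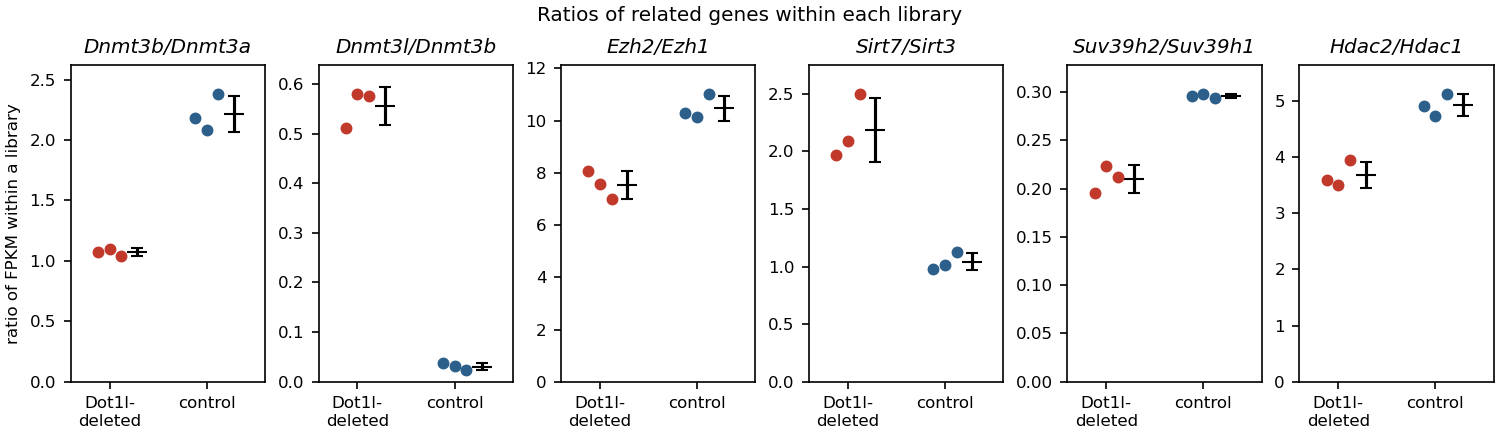
Ratio of the FPKM of 2 related genes within each library (vertical axis of each panel, linear), for 6 pairs, Dot1l-deleted libraries left and control libraries right. Dots are libraries and dashes with bars the mean ± SD (n = 3). The groups are apart for every pair, and Dnmt3b to Dnmt3a averages 1.07 in Dot1l-deleted libraries against 2.22 in control libraries.

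The pairs drawn were chosen with these values known, and the ratios are free of any factor common to a library. That of Dnmt3l to Dnmt3b was 0.511, 0.580 and 0.576 in Dot1l-deleted libraries, against 0.0371, 0.0310 and 0.0239 in control libraries, so per length Dnmt3l stood closer to Dnmt3b in every Dot1l-deleted library. That of Hdac2 to Hdac1 was 3.59, 3.49 and 3.94 in Dot1l-deleted libraries, against 4.90, 4.73 and 5.12 in control libraries.

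Outside the symbol rule, a list of 60 other chromatin modifiers was read alongside. Of the 57 tested, 6 were called, Jhdm1d (listed above too) higher and 5 lower, or 10.5% beside 19.7% of all genes. Dot1l, the gene deleted by design, is counted among the lower ones here and with scaling. With scaling 23 were called, 9 higher and 14 lower, or 40.4% beside 45.8% of all genes. Beside Dot1l, the genes called lower included the Polycomb ring proteins Bmi1 (-0.64, adjusted p = 0.0197) and Pcgf2 (-0.57, adjusted p = 0.0173) and the H3 methyltransferase Whsc1l1 (-0.50, adjusted p = 0.0308).

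Levels of cell type markers in the bulk RNA differed between the groups. The marker counts stand beside 7.43% of all genes called higher and 12.2% called lower as deposited. Of the 7 markers of maturing neutrophils, all 7 rose, with a summed level of 20600 to 24420 FPKM in Dot1l-deleted libraries and 980.5 to 1218 FPKM in control libraries. Of the 7 progenitor markers 6 were found and carried values, of which 1 rose and 2 fell: Cd34 had 143, 126 and 101 FPKM in Dot1l-deleted cells, against 765, 739 and 745 FPKM in control cells, Kit had 66.8, 61.7 and 44.1 FPKM in Dot1l-deleted against 116, 125 and 111 FPKM in control cells, and Mpo had 2609, 2595 and 1754 FPKM in Dot1l-deleted against 638, 529 and 549 FPKM in control cells. Markers of B cells (4) and of T and NK cells (5) stayed below 0.5 FPKM in all libraries. Of 4 erythroid markers 1 rose and 2 fell (summed level 22.7 to 29.3 FPKM in Dot1l-deleted and 34.7 to 39.6 FPKM in control libraries), and of 4 stromal and endothelial markers 1 was tested and did not pass. With scaling all 7 neutrophil markers were again called higher. Of the progenitor markers 2 were then called higher and 2 lower, and of the erythroid markers 1 higher and 2 lower. With scaling 21.2% of all genes were called higher and 24.7% lower. The part of maturation in the members' values was not tested.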

How the data were processed

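RNA of 6 libraries was sequenced with a stranded mRNA kit, per the labels' protocols. CASAVA 1.8.2, GSNAP, SAMtools and Cuffdiff and the build mm9 are named in the submitters' processing notes, and the use of strand in counting is not stated there, so values of genes that overlap others are uncertain. The authors deposited 1 FPKM value per gene and library, normalised for length and depth. A depth in fragments is therefore unknown; 17310 to 18034 genes per library were above 0.

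Genes with a placeholder in place of a value in any library (378) or a mean below 1 FPKM were left out. The other 11924 were compared between 3 Dot1l-deleted and 3 control libraries with limma 3.58.1 in R 4.3.3 (moderated test with a variance trend) on log2(FPKM + 1), two-sided, with Benjamini-Hochberg adjustment over all of them. A gene is called at an adjusted p below 0.05. "Scaled" values were divided by a median-of-ratios factor over genes above 0 in all 6 libraries. The alternatives were other pseudocounts, filters, scalings, no trend, a replicate block and leaving out each library. Leaving out a library together with scaling was chosen after seeing the data, except for Dot1l-deleted replicate 3.

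The members and lists were chosen with earlier results of these data known. Named are the called members, and those called with scaling at a log2 difference of at least 0.5 in size. A list of Mll, Polycomb, demethylase, deacetylase and DNA methylation genes is named whatever their values, as are members below the filter whose groups did not overlap (Prdm1 and Jmjd2d). Others (Suv39h1, Setd4, Suv420h2, Jhdm1d, Jmjd4, Cbx1, Cbx2, Cbx8, Phf16, Phf19, Hdac2, Hdac4, Sirt7, Prmt1, Prmt3, Prdm8 and Prdm12, and the genes of the other lists) were picked after their values were seen. Of the 117 entries, 112 matched GENCODE M21 by gene identifier, from which overlaps and current names were taken, 20 with another symbol. Some results that this rule would name are not reported here.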

Additional observations from a re-analysis of the deposited data

How the results depend on the processing

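The depth in fragments is unknown and 3 libraries a group limit the precision. The counts of calls depended most on how libraries were scaled and on which were kept, and the cause was not tested. With median-of-ratios scaling 5465 genes were called (2522 higher, 2943 lower), of them 46 members (8 higher, 38 lower). Quantile normalization gave 5608 (2412 higher, 3196 lower) and 48 members (7 higher, 41 lower). Without a filter 1342 genes and 2 members were called higher, and with a mean of at least 5 FPKM 0 members were, since Dnmt3l then goes untested.

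Leaving out 1 library gave 1428 to 4573 calls (661 to 2069 higher, 763 to 2504 lower) and 3 to 39 members (1 to 6 higher, 2 to 33 lower). The highest numbers came without Dot1l-deleted replicate 3. Leaving out 1 library together with scaling gave 4393 to 4919 calls (2040 to 2272 higher, 2353 to 2647 lower) and 36 to 48 members (6 to 7 higher, 29 to 42 lower). No sign of pairing by replicate number was seen: deviations of same-numbered libraries from their group means correlated at -0.0301, -0.0377 and 0.0128 across genes. With 3 libraries a group this cannot show that the libraries were unpaired. With the replicate block 2953 genes (1152 higher, 1801 lower) and 20 members (1 higher, 19 lower) were called, and with the replicate block and scaling 4567 (2148 higher, 2419 lower) and 36 (6 higher, 30 lower).

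Over the fits that left out 1 library, as deposited or scaled, the median log2 difference ran from -0.364 to -0.0984 for the members, -0.364 to -0.0684 for Dnmt, -0.323 to -0.0588 for the Mll family, -0.390 to -0.0529 for Prdm, -0.683 to -0.415 for Tet, -0.428 to -0.0867 for chromobox genes, -0.459 to -0.195 for deacetylases, -0.316 to -0.0554 for other SET genes and -0.246 to 0.0404 for sirtuins, the one class to change sign. The Tet median of 3 entries was -0.88 with a pseudocount of 0.1, -0.22 with 5, and 0.0843 with a mean of at least 5 FPKM, where Tet3 alone is left. The Prdm median was -0.0328 without a filter and that of other SET genes -0.0716 with quantile normalization. No named member that was called changed sign.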

Other observations

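Jmjd2d, a histone demethylase, was listed at 0.0146, 0.0177 and 0.0150 FPKM in Dot1l-deleted libraries and at 0 in all control libraries. These values lie at the floor of detection, where very few fragments can set the groups apart, and the gene was not tested. Of all genes below the filter and above 0 in some library, 14.3% were likewise higher in every Dot1l-deleted library. Prdm8 and Prdm12 were listed at 0 in all 6 libraries. Of the 6 tested members on the X chromosome, Hdac6 and Phf6 were called lower as deposited, where 12.2% of all genes were, and the others did not pass. With scaling Phf16 was also called lower (-0.30, adjusted p = 0.00861), where 24.7% of all genes were.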
